A study of Mus musculus with 4 samples.

Results

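The genes described here are 7 mouse genes of fatty acid uptake, transport and storage, namely Lpl, Cd36, Fabp3, Fabp4, Fabp5, Plin2 and Car3. They were taken by symbol from the 32285 genes of the spatial count tables, and all 7 passed the filter on low counts that left 14044 genes for testing. Spatial gene expression had been measured with the Visium assay, in which a frozen tissue section is laid on an array of barcoded spots that capture polyadenylated RNA, and each captured molecule is counted once as a unique molecular identifier (UMI). The aged group held ovary sections of naturally aged females of 15 to 16 months, and the young group held sections of females of 3 to 4 months, with n = 4 per age. All were outbred CD-1 mice with no transgene or treatment named in the labels, and the stage of the oestrous cycle is not given in the sources used here. Each of the 4 capture areas held 1 aged and 1 young section, so that a section is called here by its age and its capture area.

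Fatty acids reach a cell mostly as lipoprotein triglyceride, which lipoprotein lipase splits on the capillary wall. CD36 then helps the acids across the plasma membrane, fatty acid binding proteins carry them through the cytosol, and what is not oxidised or used is stored in droplets coated by perilipins. In the ovary, follicle cells, theca cells and luteal cells hold lipid droplets as a store for steroid hormones, and adipose tissue lies around the organ. Fabp4 and Car3, which codes for carbonic anhydrase 3, are abundant in adipocytes, and Fabp3 is best known from heart muscle.

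A spot covers several cells, so a level is that of a small region, and a change in a section sum cannot tell fewer cells of a type from less RNA per cell. The aged sections held 257 to 653 spots and 2777948 to 9506517 UMIs, and the young sections held 532 to 762 spots and 9702600 to 21619232 UMIs. The median spot had 8779 to 14927.5 UMIs in aged sections and 14988.5 to 28120 UMIs in young sections, so depth and age move together. Mitochondrial genes took 1.31% to 2.96% of UMIs in aged sections and 0.597% to 1.88% in young sections. Oocyte markers ran against the other areas in capture area 3, with 418 CPM (UMIs per 1000000) in its aged and 33.8 CPM in its young section, against 29.2 to 36.0 CPM in the other aged and 160 to 505 CPM in the other young sections. The sides given in the labels were kept, and values without capture area 3 are given for the genes that it moves most. The summed corpus luteum markers, which the ovary should hold, had 21141 to 42187 CPM in aged and 22649 to 41438 CPM in young sections.

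Between the ages, none of the 7 genes passed the edgeR quasi-likelihood test on section sums at an adjusted p of 0.05, and neither did any of the 14044 genes (0%). Without the adjustment, 2 of the 7, Fabp4 and Cd36, had a p under 0.05, against 392 of all genes (2.79%). With 1 section left out or capture area 3 left out, that number ran between 252 and 1261 genes, the highest without capture area 3, where 4 of the 7, Fabp4, Cd36, Car3 and Fabp5, had such a p. With the capture area as a block it was 435 genes and the members were Fabp4 and Plin2, with Cd36 at an unadjusted p of 0.0754. Fabp4, the adipocyte fatty acid binding protein, had the largest difference, with a log2 fold change of 1.99 ± 0.47 (SE) and ranked 8 of all genes by p. Its aged sections all lay above its young sections, which held in this direction for 1 of the 7 genes and for 36 of 14044 genes (0.256%). No member lay lower in every aged than in every young section, a pattern that 158 genes showed (1.13%).

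**Figure D1:**
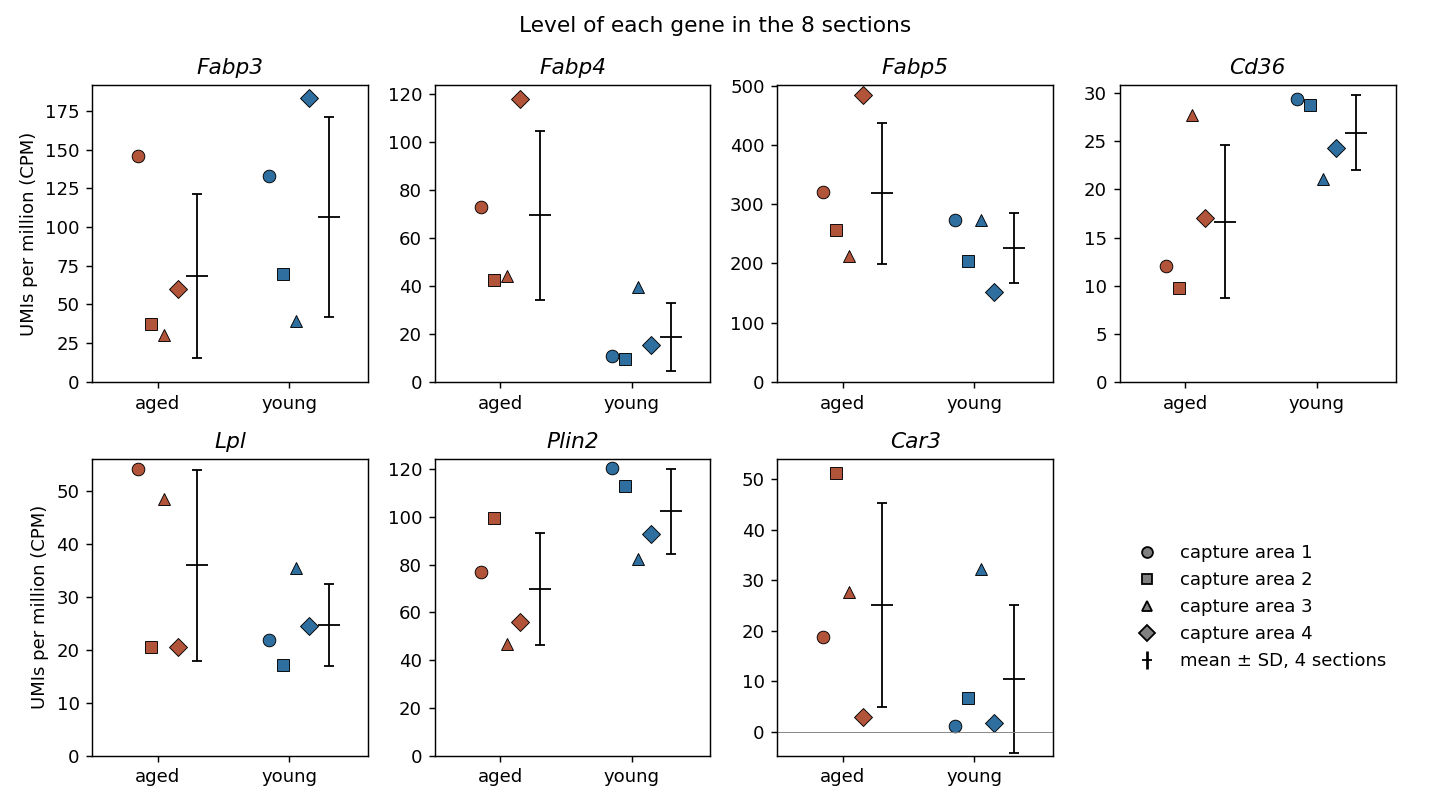
Each panel plots the level of 1 gene in UMIs per 1000000 (CPM), with a point per section, the marker shape for the capture area and bars for the mean ± SD of 4 sections per age. The 4 aged Fabp4 values, from 42.4 to 118 CPM, all lie above the 4 young values, from 9.39 to 39.6 CPM, and the ages overlap for the other 6 genes.

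Lpl codes for lipoprotein lipase, the enzyme that frees fatty acids from circulating triglyceride. It had 54.3, 20.5, 48.6 and 20.5 CPM in the aged sections of areas 1 to 4, against 21.8, 17.1, 35.5 and 24.6 CPM in the young ones. The aged sections of areas 1 and 3 were high and the other aged sections lay within the young range. The log2 fold change was 0.54 ± 0.31 (SE; edgeR, unadjusted p = 0.115, adjusted p = 1.00), and within a capture area the aged section was the higher in 3 of 4. It was 0.24 without the aged section of area 1.

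Cd36 codes for the scavenger receptor that takes up long-chain fatty acids and oxidised lipoproteins. It had 12.04, 9.78, 27.7 and 17.1 CPM in the aged sections, against 29.4, 28.8, 21.1 and 24.3 CPM in the young ones. The aged sections of areas 1, 2 and 4 all lay below the lowest young section, while that of area 3 lay inside the young range. The log2 fold change was -0.70 ± 0.27 (SE; edgeR, unadjusted p = 0.0288, adjusted p = 1.00). Without capture area 3 it was -1.06, with an edgeR adjusted p of 0.214, the lowest of its alternatives in whole sections.

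Fabp3, Fabp4 and Fabp5 code for small cytosolic carriers of the same family, named after heart, adipocytes and epidermis. Fabp5 and Fabp4 lie 187 kb apart on mouse chromosome 3 in the mm10 build (GENCODE M21). Fabp5 is at 10012548 to 10016607 on the plus strand and Fabp4 at 10204088 to 10208576 on the minus strand. Fabp3 lies on chromosome 4 at 130308595 to 130315463. UMIs of near copies could be mixed up, but whether this happened was not tested. The parts of the transcripts outside the coding sequence were not compared. The start of each coding sequence is shown from the GENCODE M21 transcripts. Bases that all 3 genes share at an aligned position are in capitals and the others in lower case:
Fabp3: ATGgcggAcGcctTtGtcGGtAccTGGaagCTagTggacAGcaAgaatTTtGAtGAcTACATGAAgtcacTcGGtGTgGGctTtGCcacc
Fabp4: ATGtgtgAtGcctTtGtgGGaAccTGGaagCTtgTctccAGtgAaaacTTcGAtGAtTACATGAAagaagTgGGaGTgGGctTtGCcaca
Fabp5: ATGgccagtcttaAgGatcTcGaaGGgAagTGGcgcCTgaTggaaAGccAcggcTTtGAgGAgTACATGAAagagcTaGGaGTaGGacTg
The longest run that all 3 genes share in this stretch of 90 bases is TACATGAA, 8 bases long. Over the whole coding sequence, Fabp4 matched Fabp3 at 63.9% and Fabp5 at 60.9% of aligned bases, and Fabp3 matched Fabp5 at 56.0%. The annotation also lists the processed pseudogenes Fabp3-ps1 and Fabp5l2, which have no row in the count tables, and the minus-strand genes Gm10570 and Zcchc17 that overlap Fabp3. Whether the counting used the strand is not given in the sources used here, so reads of Fabp3 and of these genes may not be told apart.

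Fabp4 had 72.6, 42.4, 44.3 and 118 CPM in the aged sections, against 10.8, 9.39, 39.6 and 15.3 CPM in the young ones. The aged sections of areas 1 and 4 stood well above all others, and the young section of area 3 came close to the lowest aged ones. An exact two-sided permutation test over sections gave p = 0.0286, the smallest that 4 against 4 sections can give. The edgeR test gave an unadjusted p of 0.00206 and an adjusted p of 1.00. Within the capture areas the log2 ratio of aged to young CPM + 1 was 2.64, 2.06, 0.16 and 2.86, so the aged section was the higher in 4 of 4 areas. Without capture area 3 the edgeR log2 fold change was 2.74 ± 0.35 (SE), with an adjusted p of 0.138. Over all alternatives in whole sections, DESeq2 included, its adjusted p ran from 0.0576 to 1.00.

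The Fabp4 UMIs of the aged section of area 3 came mostly from a pair of spots apart from the main tissue. One held 28 Fabp4 UMIs among 3025 in all and the other 66 among 4402, of 123 Fabp4 UMIs in the section. The same spots held 121 of the 130 Cfd and 20 of the 20 Adipoq UMIs of that section, Cfd and Adipoq being the adipocyte genes for adipsin and adiponectin, and also 46 of its 77 Car3 UMIs and 14 of its 135 Lpl UMIs. They were the only spots of the series with at least 3 UMIs of Adipoq, Cfd, Cidec, Retn and Lep, a list drawn up after the data were seen. Elsewhere in that section, 29 Fabp4 UMIs over 255 spots came to 10.5 CPM, within the range of the young sections.

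In the other aged sections Adipoq and Cfd were at or near 0 while Fabp4 was high, and Plin1 of the same list had 27, 49 and 50 UMIs. Adipoq had 0, 1 and 1 UMIs and Cfd 1, 1 and 0 UMIs in the aged sections of areas 1, 2 and 4, where Fabp4 had 368, 403 and 934 UMIs. In the young sections Adipoq had 1, 0, 4 and 0 UMIs and Cfd had 0, 0, 16 and 0 UMIs. Over the full list of 7 adipocyte markers the sums were 5.92 to 86.8 CPM in aged and 7.73 to 13.8 CPM in young sections. Outside the aged section of area 3, Plin1, the perilipin of adipocytes and steroid-making cells, and Adig gave most of these UMIs.

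**Figure D2:**
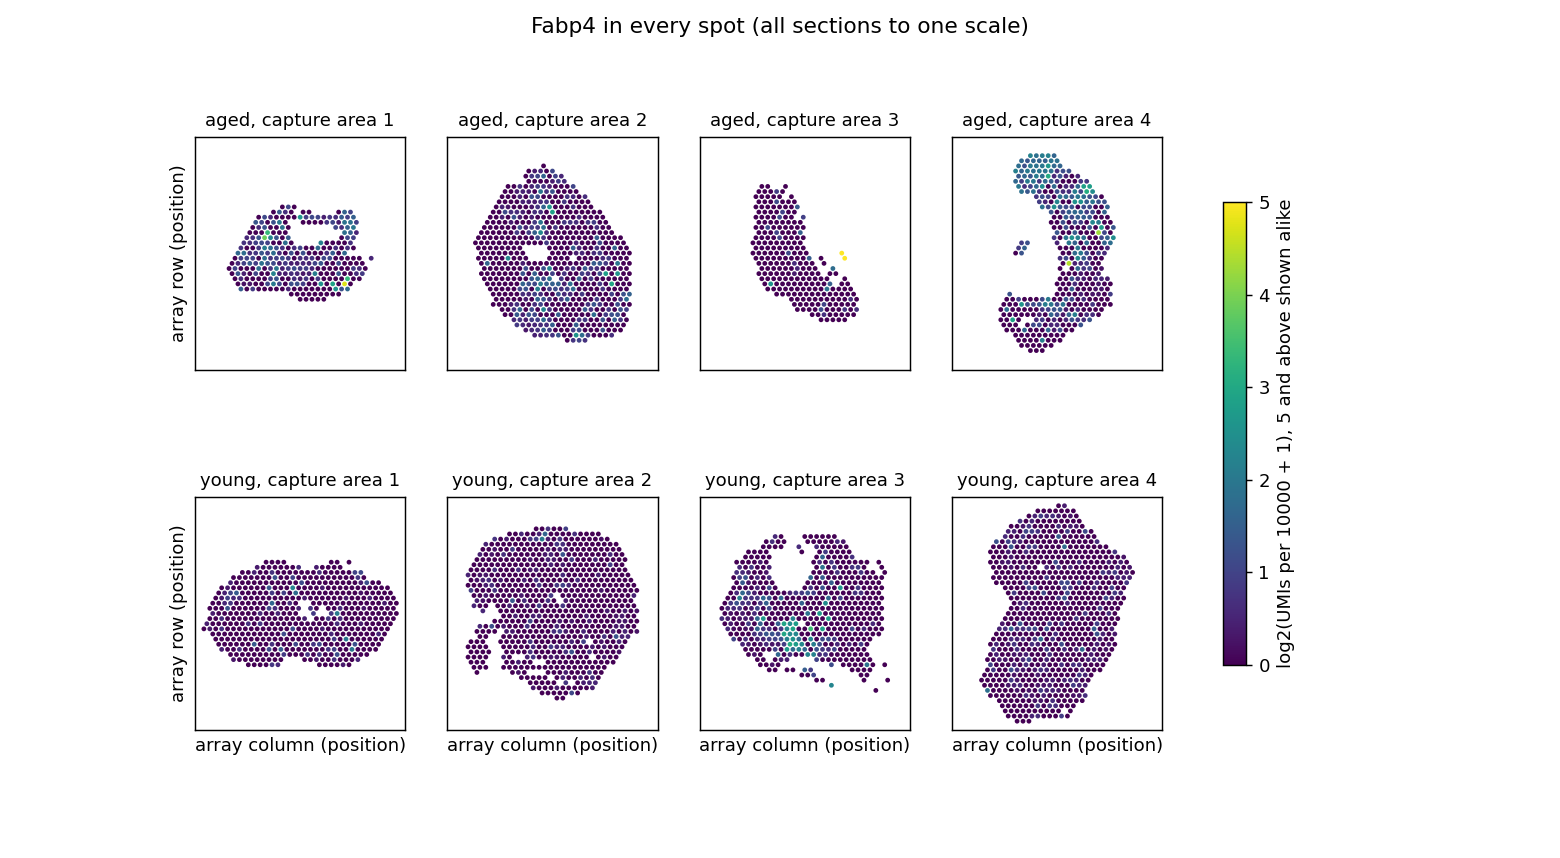
Each point is a spot at its array position, all sections to one scale with aged sections in the upper row, coloured by log2(Fabp4 UMIs per 10000 + 1). Fabp4 is spread over much of the aged sections of areas 1, 2 and 4, gathers in a patch of the young section of area 3, and in the aged section of area 3 sits in the pair of spots with 28 and 66 UMIs.

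With all spots of at least 3 adipocyte-marker UMIs left out, Fabp4 had 72.4, 42.5, 10.5 and 117 CPM in the aged sections, against 10.9, 9.59, 39.7 and 15.6 CPM in the young ones. The ages then overlapped, through the sections of area 3 alone (exact permutation p = 0.143). The log2 fold change was 1.81 ± 0.65 (SE; edgeR, unadjusted p = 0.0201, adjusted p = 1.00). None of the 7 genes passed in this comparison, and none of the 14005 genes tested (0%). No member separated the ages there, against 36 genes higher in aged (0.256%) and 148 lower in aged sections (1.05%).

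At a common depth of 5000 UMIs per spot, 25.1%, 18.2%, 5.93% and 36.2% of aged spots were expected to hold a Fabp4 UMI, against 6.16%, 4.77%, 15.0% and 7.28% of young spots. The means were 21.4% ± 12.7 in aged and 8.30% ± 4.58 in young sections (SD, n = 4 each), which overlapped through area 3 (exact permutation p = 0.114, adjusted p = 1.00). Between 18 and 122 spots per aged section and 4 to 75 spots per young section were too shallow and were left out. Without thinning the means were 38.7% and 24.1%. In no gene of the 14044 did this share pass the adjustment (0%), with 190 at an unadjusted exact p under 0.05. The smallest exact p that 4 against 4 sections can give, 0.0286, survives the adjustment only where most genes reach it. No gene could therefore pass, and the adjusted p cannot show that the shares of the ages were alike.

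Fabp5, the epidermal carrier, had 320, 255.8, 212 and 485 CPM in the aged sections, against 273, 205, 274 and 153 CPM in the young ones. The aged section of area 4 was the highest of all and the young section of the same area the lowest. The log2 fold change was 0.54 ± 0.31 (SE; edgeR, unadjusted p = 0.112, adjusted p = 1.00) and was 0.25 without the aged section of area 4. Without capture area 3 it was 0.77 (edgeR, unadjusted p = 0.0328, adjusted p = 0.504). The aged section was the higher in 3 of 4 areas, the exception being area 3.

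Fabp3, the heart-type carrier, had 146, 37.2, 30.6 and 59.8 CPM in the aged sections, against 133, 69.8, 39.1 and 183 CPM in the young ones. The aged section of area 1 and the young sections of areas 1 and 4 were high, and the ages overlapped widely. Fabp3 had a log2 fold change of -0.62 ± 0.58 (SE; edgeR, unadjusted p = 0.313, adjusted p = 1.00), of -1.29 without the aged section of area 1 and of -0.25 without the young section of area 4.

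Plin2 codes for perilipin 2, the droplet coat of most cells other than adipocytes. It had 76.99, 99.3, 46.8 and 55.8 CPM in the aged sections, against 121, 113, 82.3 and 93.0 CPM in the young ones. The aged section was the lower in 4 of 4 areas, although the aged section of area 2 lay above the young sections of areas 3 and 4. The log2 fold change was -0.51 ± 0.31 (SE; edgeR, unadjusted p = 0.132, adjusted p = 1.00), -0.81 without the aged section of area 2 and -0.32 without that of area 3. With the capture area as a block it was -0.58 ± 0.15 (SE; edgeR, unadjusted p = 0.00908, adjusted p = 1.00).

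Car3 codes for carbonic anhydrase 3, a cytosolic enzyme of adipocytes, liver and slow muscle. It lies on chromosome 3 at 14863512 to 14872523, 4.65 Mb from Fabp4. It had 18.8, 51.3, 27.7 and 2.91 CPM in the aged sections, against 1.06, 6.57, 32.3 and 1.79 CPM in the young ones. The young section of area 3 was higher than all aged sections but that of area 2. Car3 had a log2 fold change of 1.45 ± 1.03 (SE; edgeR, unadjusted p = 0.190, adjusted p = 1.00), 0.63 without the aged section of area 2 and 2.96 without capture area 3. With adipocyte-marker spots left out it was 1.25, and 0.11 without the aged section of area 2 as well.

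**Figure D3:**
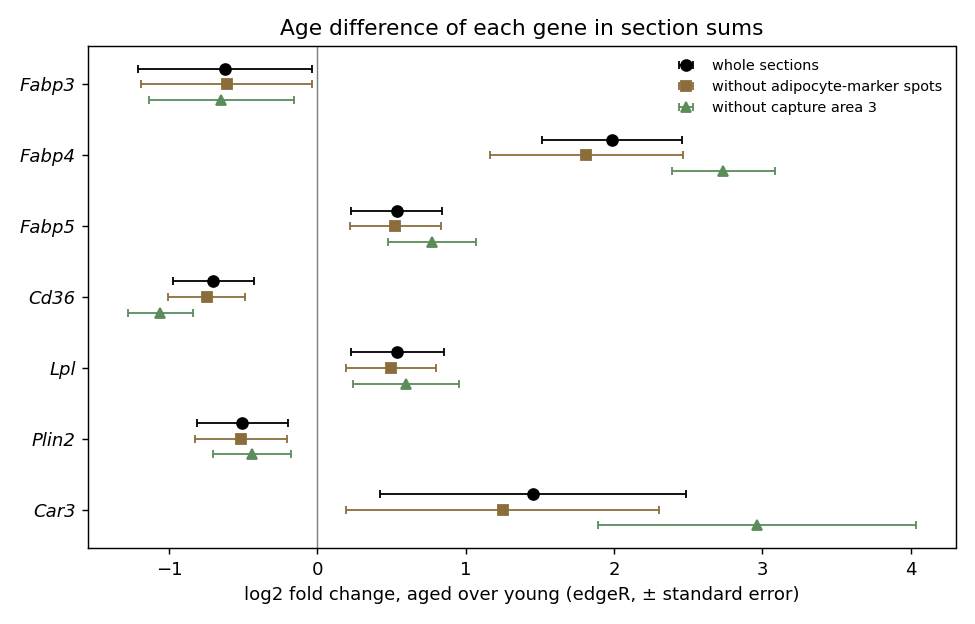
Points are edgeR log2 fold changes, aged over young, with bars for the standard error, for whole sections (circles), for sections without adipocyte-marker spots (squares) and without capture area 3 (triangles). Fabp4 lies between 1.81 and 2.74 in all 3 sets, Car3 between 1.25 and 2.96, and the signs are the same in all sets for each gene.

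The other genes of the pathway gave no call either, and their counts were read against a median log2 fold change of 0.01 over all genes, of which 52.5% were higher in the aged sections. Some marker lists of cell types also lay mostly on one side of 0, with no gene called. The granulosa markers were higher for 9 of 9 genes (median 0.77), with summed levels of 999 to 4601 CPM in aged and 1753 to 2612 CPM in young sections. The theca markers were lower for 6 of 6 genes (median -0.58; 574 to 1241 CPM in aged and 766 to 1622 CPM in young sections), and the endothelial markers for 7 of 9 genes (median -0.36; 416 to 586 CPM in aged and 584 to 784 CPM in young sections). The oocyte markers were lower for 7 of 9 genes (median -1.20) and the smooth muscle and pericyte markers for 5 of 6 (median -0.53). Markers of oviduct epithelium were lower for 5 of 5 genes (median -1.46), while macrophage markers were higher for 6 of 8 (median 0.05). The part of these cell types in the differences of Fabp3, Fabp5 and the lists that follow was not tested. Of 13 tested partners of lipoprotein lipase, 9 were higher in the aged sections, with a median of 0.47. Gpihbp1, the capillary protein that holds the lipase on the vessel wall, averaged 43.3 ± 38.4 CPM in aged and 13.5 ± 6.88 CPM in young sections (SD, n = 4 each), a log2 fold change of 1.78 ± 0.69 (SE). Lipg, endothelial lipase, averaged 306 ± 188 CPM in aged and 157 ± 38.3 CPM in young sections. Apoc1, an apolipoprotein that inhibits lipoprotein lipase, averaged 19.4 ± 3.68 CPM in aged and 12.1 ± 3.65 CPM in young sections. The edgeR unadjusted p was 0.0284 for Gpihbp1, 0.0367 for Lipg and 0.0174 for Apoc1, all with an adjusted p of 1.00.

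Of 16 genes of fatty acid and triglyceride synthesis, 13 were higher in the aged sections, with a median log2 fold change of 0.41. Scd1, a stearoyl-CoA desaturase, averaged 145 ± 110 CPM in aged and 59.3 ± 21.2 CPM in young sections (log2 fold change 1.38 ± 0.52, SE). Scd2, another desaturase of the same family, averaged 1131 ± 343 CPM in aged and 744 ± 131 CPM in young sections (0.62 ± 0.27). Of 17 genes of fatty acid oxidation 12 were lower, with a median of -0.07, led by Hadhb (-0.29) and Hadha (-0.24) of the mitochondrial trifunctional protein. The PPAR and adipogenic regulators had a median of -0.01 over 7 genes, among them Cebpa, a factor of adipocyte differentiation, which averaged 16.8 ± 2.52 CPM in aged and 33.1 ± 15.7 CPM in young sections (-0.93 ± 0.35). Medians were 0.03 for 11 genes of uptake and activation, such as Acsl3 (0.66), and 0.04 for 6 of lipolysis, such as Mgll (0.14). They were -0.37 for 5 other intracellular lipid carriers, such as Crabp1 (-1.30), -0.13 for 7 droplet coat genes, such as Hilpda (-0.37), and -0.25 for 8 other carbonic anhydrases, such as Car5b (-0.52). All of these had an edgeR adjusted p of 1.00.

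The tissue regions that held each gene were compared within sections, over both ages. For each of 10 lists of cell type markers, none of which holds a member, the 10% of spots highest in the list were set against the other spots of the same section, and the log2 ratio of CPM + 1 was tested over the 8 sections with an exact two-sided sign-flip permutation test, adjusted over all genes for that list. Of the 70 pairs of a gene and a list, 6 passed, all for the corpus luteum or granulosa lists. In the other 8 lists no gene could pass, because the smallest exact p of 8 sections, 0.0078, survives the adjustment only where about 2194 genes reach it. The depth of list-high and other spots also differed, and its part in the ratios was not tested: the median spot high in luteal markers had 9235 to 37258 UMIs, against 8748 to 27188 UMIs in the other spots of those sections, and high in endothelial markers 4397 to 24362, against 8936 to 28744.

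**Figure D4:**
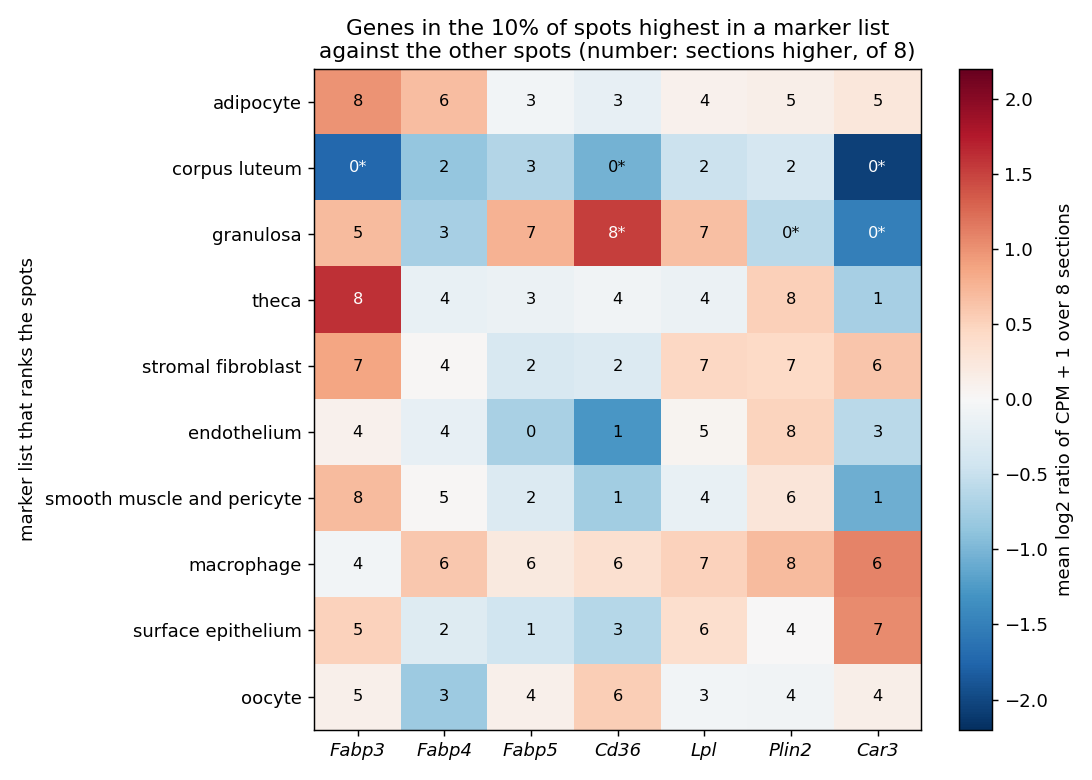
Colour gives the mean log2 ratio of CPM + 1 over 8 sections between the spots highest in a marker list (rows) and the other spots, for each gene (columns); the number is how many of 8 sections were higher in list-high spots and a star marks an adjusted exact p under 0.05. Cd36 is high in granulosa spots in 8 of 8 sections, and Fabp3 is high in theca spots in 8 and low in luteal spots in 8 of 8 sections.

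The spots rich in luteal markers were poor in 3 of the 7 genes. Fabp3 had 26.1 ± 13.6 CPM in them and 97.3 ± 65.3 CPM in the other spots (SD over 8 sections), a mean log2 ratio of -1.72 ± 0.51 (SD, n = 8; exact sign-flip adjusted p = 0.0475). Cd36 had 11.1 CPM in luteal and 22.8 CPM in other spots (-1.04 ± 0.75), and Car3 had 3.95 and 19.9 CPM in the same classes (-2.06 ± 1.37), both lower in 8 of 8 sections at the same adjusted exact p. For Cd36 the aged section of area 2 had a ratio of -0.02, with 9.63 CPM in luteal and 9.81 CPM in other spots. For Car3 the luteal spots of the aged sections of areas 3 and 4 held 0 UMIs. In the young sections of areas 1 and 4 they had 0.57 and 0.53 CPM, against 1.15 and 1.95 CPM in the other spots. The Car3 ratio therefore depends on the pseudocount. In this direction 2073 of 14035 genes passed (14.8%), and 236 were higher (1.68%), none of them a member. The luteal calls were lost with the top 5% of spots in place of the top 10% and with the mean log2 CPM per spot in place of the pooled CPM, where in both no gene passed. All 6 calls were lost when any 1 section was left out, since too few genes then reached the smallest exact p.

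Granulosa cells line the follicle and surround the oocyte, and spots rich in their markers were rich in Cd36. These spots had 21.6, 17.7, 54.5 and 36.4 Cd36 CPM in the aged sections and 55.0, 123, 57.7 and 90.5 CPM in the young ones. The other spots had 10.3, 9.06, 23.9 and 14.8 CPM in the aged and 26.5, 17.1, 17.2 and 17.4 CPM in the young sections. The ratio was above 0 in every section, with a mean log2 ratio of 1.51 ± 0.69 (SD, n = 8; exact sign-flip adjusted p = 0.0376). Higher calls were made for 1415 of 14035 genes (10.1%) and lower calls for 1503 (10.7%).

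The lower calls in granulosa spots included Plin2 and Car3. Plin2 had 59.9 CPM in granulosa and 89.3 CPM in the other spots (-0.59 ± 0.33), and Car3 had 7.20 and 19.2 CPM in the same classes (-1.50 ± 0.98), each lower in 8 of 8 sections (exact sign-flip adjusted p = 0.0376). In some of these sections Car3 was near 0 in both classes. Granulosa spots had 0 CPM in the young section of area 1, against 1.18 CPM in the other spots. The values were 0.62 against 1.92 CPM in the young and 1.21 against 3.10 CPM in the aged section of area 4. The Car3 ratios there depend on the pseudocount, and the count of 8 of 8 includes them. The Plin2 call was lost with the top 5% and the top 20% of spots, and the Car3 call with the top 20% and with spots ranked by UMI count. Fabp5 had 426 CPM in granulosa and 252 CPM in the other spots (0.77 ± 0.52), higher in 7 of 8 sections, and missed the adjustment (exact adjusted p = 0.0549). The exception was the aged section of area 2, with 255.4 CPM in granulosa and 255.9 CPM in other spots. Lpl, which follicle cells and macrophages can express, was also higher in 7 of 8 sections (0.66 ± 0.61, exact adjusted p = 0.071).

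Theca cells form the outer follicle wall and make androgens with Cyp17a1, and Fabp3 was high where their markers were high. In theca-high spots it had 414, 52.0, 51.0 and 340 CPM in the aged and 382, 233, 83.3 and 586 CPM in the young sections. In the other spots it had 122, 35.4, 29.5 and 46.6 CPM in the aged and 116, 56.6, 35.1 and 142 CPM in the young sections. The mean log2 ratio was 1.61 ± 0.75 (SD, n = 8), at the smallest exact p (0.0078, adjusted p = 0.106). Fabp3 was also higher in 8 of 8 sections in spots high in the smooth muscle list (0.70 ± 0.43) and in the adipocyte list (0.98 ± 0.46). Outside the aged section of area 3 the spots high in the adipocyte list are not shown to be fat, since that list rested there mostly on Plin1, in the young section of area 2 with 81 UMIs of Plin1 and 91 of Adig. In the aged sections of areas 1 and 2, 6 of 30 and 12 of 66 of these spots held no UMI of the list at all.

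Plin2 was higher in 8 of 8 sections in spots rich in macrophage (0.70 ± 0.21), theca (0.53 ± 0.24) and endothelial markers (0.49 ± 0.27). With spots ranked by UMI count the endothelial value turned to -0.15. In macrophage-high spots it had 98.4, 154, 66.1 and 100 CPM in the aged sections and 198, 195, 149 and 129 CPM in the young ones. Fabp5 was lower in 8 of 8 sections in endothelium-high spots, with 165 CPM against 278 CPM in the other spots (-0.72 ± 0.25). These pairs were picked from the 70 because all 8 sections went the same way, and the exact test could not call them. Of all genes tested, all 8 sections went the same way, up or down, for 5.39% in macrophage, 7.37% in theca and 7.79% in endothelial spots. The share was 10.7% in smooth muscle spots and 4.46% in spots high in the adipocyte list. A limma test on the same log2 ratios, chosen after the limit of the exact test was seen, called 16 of the 70 pairs. It called the 13 pairs in which all 8 sections went the same way, the 6 pairs of the exact test among them, and also Fabp5 and Lpl, higher, in granulosa spots and Cd36, lower, in smooth muscle spots. Of all genes tested, limma called 24.2% lower in luteal spots, 14.9% higher and 17.1% lower in granulosa spots, 1.93% higher in theca spots and 1.38% higher in macrophage spots. It called 3.53% higher and 1.92% lower in endothelial spots, 6.03% higher and 4.61% lower in smooth muscle spots, and 0.207% higher in spots high in the adipocyte list.

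Fabp4 passed the exact test in none of the 10 lists. Its mean log2 ratio lay between -0.84 in spots high in the luteal and 0.68 in spots high in the adipocyte list, with SDs of 0.66 to 1.98 over sections. The value in the adipocyte list rests on the aged section of area 3, with a ratio of 4.92, and was 0.07 without that section. The pair of adipocyte spots of that section stood among the other spots in most lists, so its ratios were also taken without the pair, a choice made after the data were seen. Fabp4 was higher in macrophage spots in 6 of 8 sections (0.60 ± 0.94), where the aged sections had 109, 102, 22.02 and 108 CPM, against 13.0, 21.8, 124 and 20.7 CPM in the young ones. Without the pair it was higher in 7 of 8 sections (0.87 ± 0.68, exact sign-flip adjusted p = 0.178), and with spots ranked by UMI count the mean ratio turned to -0.091. Car3 was higher in 7 of 8 sections in spots of surface epithelium markers, keratins and Upk3b (1.03 ± 0.95), with 79.8, 94.5, 104 and 8.87 CPM in the aged and 1.48, 8.01, 48.2 and 1.57 CPM in the young sections. In the aged section of area 3, 16 of the 17 Car3 UMIs of these spots came from 1 spot of the pair. Without the pair the level there was 6.24 CPM, and Car3 was higher in 6 of 8 sections (0.67 ± 1.02). Whether a ratio differed between the ages was tested for all genes and lists with an exact permutation test, and no gene passed (0% in every list). With 4 against 4 sections the smallest exact p survives the adjustment only where most genes tested reach it. The 0% therefore cannot show that the ratios of the ages were alike. Of the 70 pairs, 3 reached the smallest exact p of 0.0286, which a pair without an age difference also reaches with that probability. The share of all genes that reached it was not counted, so the 3 pairs are a description. One was Car3 in luteal spots (-2.91 in aged, -1.20 in young sections). The others were Car3 in surface epithelium spots (1.79 in aged, 0.27 in young sections) and Fabp4 in smooth muscle spots (-0.55 in aged, 0.60 in young sections). Without the pair of adipocyte spots, Car3 in luteal spots still separated the ages (-2.60 in aged, -1.20 in young sections), but narrowly. The nearest values were -1.76 in the aged and -1.73 in the young section of area 2. In the young sections of areas 1 and 4 the other spots had only 1.15 and 1.95 Car3 CPM. At such levels the pseudocount of 1 CPM limits how negative a ratio can be, so the separation cannot show an age difference. Also without the pair, the ages overlapped for Car3 in surface epithelium spots (1.06 in aged, 0.27 in young sections, exact permutation p = 0.314). They overlapped as well for Fabp4 in smooth muscle spots (-0.0055 in aged, 0.60 in young sections, exact permutation p = 0.114).

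**Figure D5:**
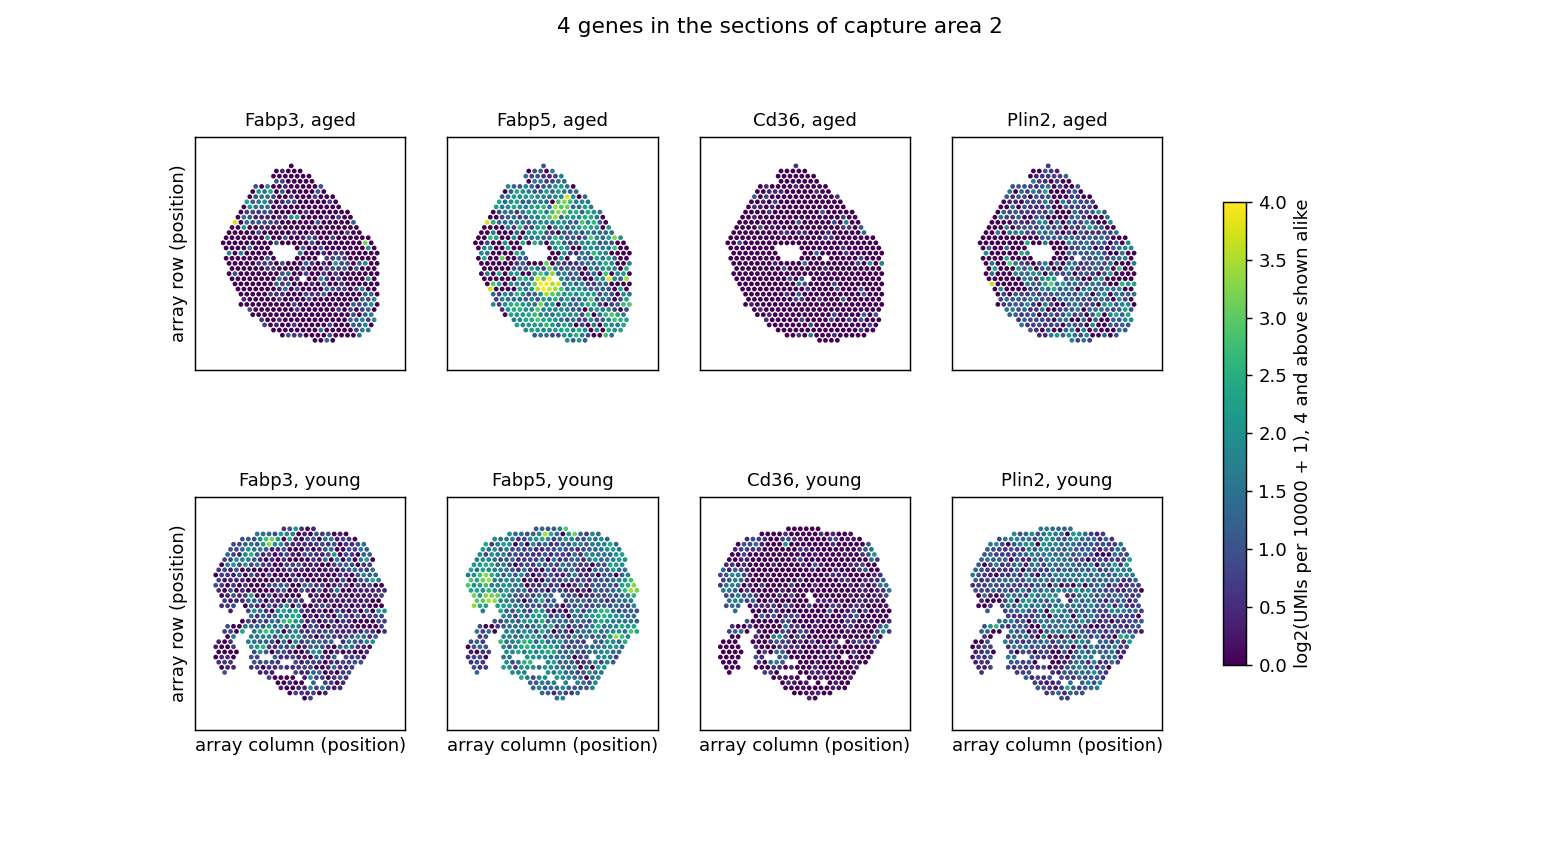
Each point is a spot of the aged (upper row) or young (lower row) section of capture area 2, coloured by log2(UMIs per 10000 + 1) of Fabp3, Fabp5, Cd36 or Plin2. Fabp5 and, in the young section, Cd36 gather in patches, while Plin2 is spread over the tissue; the whole aged section had 9.78 and the whole young section 28.8 Cd36 CPM.

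The genes differed in how far neighbouring spots resembled each other, measured as the within-section correlation of a spot's log2 level with the mean of its direct neighbours. The mean r over 8 sections was 0.56 for Fabp5, 0.46 for Fabp3, 0.35 for Fabp4, 0.30 for Cd36, 0.29 for Car3, 0.24 for Plin2 and 0.16 for Lpl, beside a median of 0.07 over all genes tested. For Fabp4 and Car3 the highest values, 0.82 and 0.80, were those of the aged section of area 3 with its pair of adipocyte spots. Few UMIs per spot hold r down, and the members were not compared with genes of like level. The part of the UMI counts in the order of the genes, and in the gap to the median, was not tested. Spots of a section share its library and its depth, so these values are a description.

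Across the spots of a section, the genes whose level went most with Fabp3 were Cyp17a1, the theca enzyme of androgen synthesis (mean r = 0.36 over 8 sections), the glutathione transferases Gstm1 (0.33) and Gstm2 (0.32), Acsbg1, an acyl-CoA synthetase (0.32), and Aldh1a1, a retinaldehyde dehydrogenase (0.32). Cyp17a1 and Aldh1a1 are also in the theca list. For Cyp17a1 the r ran from -0.12 to 0.64 between sections. With Fabp5 went Cyb5a, cytochrome b5 (0.38), Gja1, the gap junction protein of granulosa cells (0.36), Serpine2, a protease inhibitor (0.33), and Fst, the activin antagonist follistatin (0.30). No gene reached a mean r of 0.3 with the other 5 members.

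Among the members themselves the correlations across single spots were low. Few UMIs per spot hold such an r down, so a low r cannot show that 2 genes lack a shared pattern. Car3, for example, had a UMI in 1.69% and 2.76% of spots in the young sections of areas 1 and 4. In the aged section of area 4 it had one in 4.33% of spots. The highest mean r was 0.22, between Fabp5 and Cd36, from 0.10 in the young section of area 3 to 0.45 in the young section of area 2. Fabp4 and Fabp5, which lie on the same chromosome, had a mean r of 0.17, positive in 8 of 8 sections. Fabp4 and Car3 had an r of 0.75 in the aged section of area 3, which holds the adipocyte spots, and between -0.03 and 0.05 in the other 7 sections.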

How the data were processed

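Ovary sections of 4 aged and 4 young CD-1 mice lay in pairs on 4 capture areas of 6.5 mm; per the labels' protocols they were frozen, cut at 10 µm and permeabilised for 18 min. The deposited tables hold whole-number UMI counts per gene and spot; Space Ranger 1.2.1 and mm10 are named in the submitters' processing notes. The authors' tables also give each spot's array and pixel position, not a measurement. How spots were chosen for the tables is not given in the sources used here: 4191 of 4263 positions marked over tissue have a column. Areas share 1358 spot barcodes, which name array positions.

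Spots were split between ages by the labelled side, at the largest empty stretch within the central 60% of pixel positions. UMIs were summed per section, since spots are not replicates. Aged and young sums were compared with edgeR 4.0.16 (R 4.3.3, TMM, filterByExpr, quasi-likelihood test), with Benjamini-Hochberg adjustment over all genes tested and a threshold of 0.05, whole and without spots of 3 or more adipocyte-marker UMIs. The SE of a log2 fold change was taken as its size over the square root of the F statistic. CPM are UMIs per 1000000 in a section or spot class. Single values had exact permutation tests over sections, on log2(CPM + 1). The shares of spots with a UMI were the hypergeometric expectation at 5000 UMIs. Intervals for counting error are not given; the spread between sections is.

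List-high spots were the 10% of a section's spots with the highest CPM of a list, compared as log2 ratios with a pseudocount of 1 CPM. Tests were checked on simulated data. With 8 sections the sign-flip test recovered none of 200 and none of 2000 simulated changed genes and nearly all of 5000, since its smallest p must be reached by many genes. limma 3.58.1 on the same ratios, the adipocyte list without Plin1 and Adig, and the ratios without its spots were chosen after the data were seen. Coding sequences were aligned with MAFFT 7.526.

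The capture area is a shared library, so replicate numbers pair the sections by the labels; deviations from the age means correlated at 0.0036, 0.17, -0.22 and 0.21 in areas 1 to 4. The alternatives were the area as a block, DESeq2 1.42.0, other scalings, filters, splits and spot classes, and leaving out sections. The text names the 7 members, up to 4 genes per pathway list with the smallest edgeR p, and the 5 genes most like a member across spots where the mean r was at least 0.3. Members and lists were chosen with earlier results of these data known. Pairs of a member and a list were named from their values.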

Additional observations from a re-analysis of the deposited data

Results flagged for a closer look

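In 5 of 78 groups of 4 sections examined, a section stood far from the other 3 of its age, a number near the 1 in 20 that chance gives. The Fabp3 log2 ratio in spots high in the adipocyte list was 1.87 in the aged section of area 4, above the other aged sections. The Fabp4 log2 ratio in the same class of spots was 4.92 in the aged section of area 3, which holds the pair of spots with Adipoq and Cfd, above the other aged sections. The Fabp3 log2 ratio in spots high in corpus luteum markers was -0.75 in the aged section of area 3, less negative than in the other aged sections. The Plin2 log2 ratio in granulosa-high spots was -0.20 in the aged section of area 2, less negative than in the other aged sections. The Car3 log2 ratio in macrophage-high spots was 1.69 in the young section of area 4, above the other young sections.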

How the results depend on the processing

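In whole sections edgeR called 0 genes and 0 members under all settings run (392 genes at an unadjusted p under 0.05; 252 to 993 without single sections, 1261 without capture area 3), the capture area as a replicate block included (0 genes; Fabp4 2.07, adjusted p = 1.00), except that DESeq2 called 6 genes, none a member. Without adipocyte-marker spots edgeR called 0 genes, with the block 0, and DESeq2 called 7, none a member. The sign of all 7 log2 fold changes held under all 16 alternatives in whole sections and all 21 without adipocyte-marker spots; for Fabp4 the range was 1.58 to 2.74 in whole sections (adjusted p 0.0576 to 1.00) and 1.29 to 2.71 without those spots (adjusted p 0.118 to 1.00), where leaving out the stricter adipocyte spots gave 1.83. In the list-high spots, 6 pairs were called in the main test. The count was 4 with the top 5% or top 20% of spots and 5 with spots ranked by UMI count or with the mean log2 CPM per spot. These were not all pairs of the main test. With the top 5% of spots all luteal calls and the Plin2 call in granulosa spots were lost. With the mean log2 CPM per spot all luteal calls were lost, so both counts include pairs outside the 6. Leaving out any 1 section gave 0 to 0 pairs and 0 to 0 genes in both lists, and leaving out capture area 3 gave 0, since too few genes then reached the smallest exact p. Without the stricter adipocyte spots, 6 pairs were called. limma gave 16 pairs, 4492 granulosa and 3777 luteal genes. The luteal list had 2309 genes in the main test, 0 with the top 5% of spots, 0 with the mean log2 CPM per spot and 4395 with spots ranked by UMI count. Directions reversed for pairs that the exact test had not called: with spots ranked by UMI count Plin2 in endothelial spots (called by limma) was -0.15, Fabp4 in macrophage spots -0.091 and Fabp4 in smooth muscle spots -0.13; Fabp4 in smooth muscle spots was -0.022 with the mean log2 CPM per spot and -0.094 to 0.25 without single sections. Without thinning, the aged minus young difference in the share of spots with a UMI reversed for Fabp5 (-7.13 percentage points) and Lpl (-3.52), with aged spots the shallower; causes of the other changes were not tested. The description by distance from adipocyte-marker spots had only the young sections of areas 2 and 4 with at least 10 such spots, where Adipoq was at 0, and 0 sections from 10 UMIs on, so it is not reported.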
